A study of Mus musculus with 2 samples.

Results

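The genes described here encode enzymes that break down extracellular ATP and adenosine and the receptors that sense ATP, other nucleotides and adenosine. They were *Entpd1*, *Nt5e*, *Ada*, *Adora2a*, *Adora2b*, *P2rx4*, *P2rx7*, *P2ry2*, *P2ry6* and *P2ry12*, and were found by matching the transcript identifier of each non-control probe to the RefSeq transcripts of these names. All 10 genes were found, with 13 probes, among the 20653 genes that could be named on the array. The matching used no measured value, but the genes were chosen with earlier results of these data known.

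ATP leaves stressed or dying cells and accumulates in tumours, where it acts as a danger signal on myeloid cells. CD39, the product of *Entpd1*, removes phosphates from ATP and ADP, CD73, the product of *Nt5e*, turns the resulting AMP into adenosine, and adenosine deaminase, the product of *Ada*, turns adenosine into inosine. P2X receptors are cation channels opened by ATP and P2Y receptors are G protein-coupled receptors for ATP, ADP, UTP or UDP, while the receptors made from *Adora2a* and *Adora2b* bind adenosine, raise cyclic AMP and are known to restrain immune cells.

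RNA was from monocytic myeloid-derived suppressor cells (M-MDSCs), immature myeloid cells that dampen T-cell responses, isolated with a magnetic bead kit from subcutaneous 4T1 tumours, 4T1 being a mouse mammary carcinoma line. All hosts were female BABL/c mice (strain as spelled in the labels) aged 6 to 8 weeks, fasted for 1 day, given 1000000 4T1 cells in the left armpit and then assigned at random to a diet for 16 days. The normal-salt diet (NSD) held 0.4% NaCl in the chow with tap water, and the high-salt diet (HSD) held 4% NaCl in the chow with 1% NaCl in the drinking water. Cells were pooled in equal numbers within each diet, and the RNA of each pool was labelled with Cy3 and hybridised to 1 array, so that each diet had 1 value per gene, differences between mice were not measured and no test was possible. The number of arrays thus limits the precision of every value below. In the pooled RNA, fewer cells of a type and less RNA per cell cannot be told apart.

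Signals are processed intensities, background-corrected by the scanner software. A log2 fold change is the HSD minus the NSD value after the 75th percentile of each array, 252 under NSD and 233 under HSD, had been subtracted on the log2 scale. A gene was called when it differed by at least 1.5-fold (0.58 on the log2 scale) and its probe was called well above background with one diet or both. The probe with the highest mean log2 signal stood for a gene. Probes differ in how strongly they bind their target, so signals are compared between diets and not between genes.

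The myeloid identity of the cells was checked first. Of 11 monocyte and macrophage markers, 9 had a named probe and each of these was detected with either diet, including *Itgam* (CD11b) at 31564 and 31043 and *Ly6c1* at 51811 and 48478 for NSD and HSD. However, 8 of 9 neutrophil markers had a named probe and were also bright, at 1643 to 61817 under NSD and 2168 to 59920 under HSD, among them the granule genes *Ngp*, *Camp* and *Ltf*. None of these 8 was called between the diets, with log2 fold changes from -0.06 to 0.51, beside 20.2% of all genes called. From these markers, monocytic cells alone and a mixture with granulocytic cells cannot be told apart.

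Of the 10 genes, 6 were lower in the HSD group, 1 was higher and 3 were within 1.5-fold. *Entpd1*, *Ada*, *P2rx4*, *P2rx7*, *P2ry6* and *P2ry12* were the lower genes, *Adora2b* was the higher gene, and *Nt5e*, *Adora2a* and *P2ry2* passed in neither direction. Over the 10 genes the median log2 fold change was -0.97, against 0.045 over all 16312 genes with a usable probe. Over those 16312 genes, 20.2% were called, 9.86% higher and 10.3% lower in the HSD group. Cyclic loess scaling moved the split over all genes from 1608 higher and 1682 lower to 1244 higher and 1991 lower, while the same 6 and 1 genes here were called. With either diet, each of the 13 probes was well above background and none was saturated. Of the 13 probes, 7 passed 1.5-fold, against 19.2% of 29599 usable probes.

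**Figure D1:**
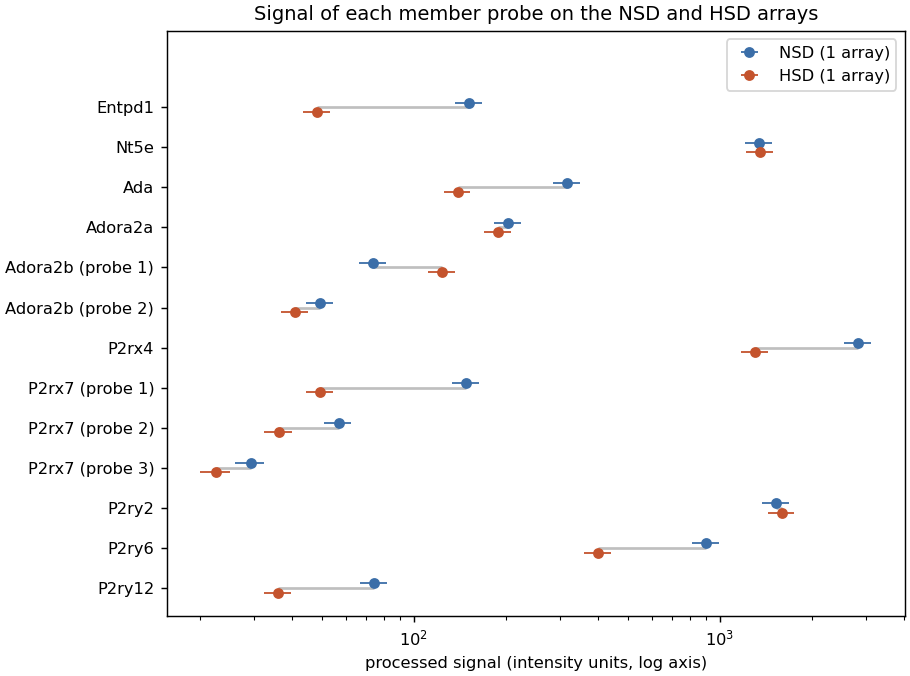
Processed signal (log axis) of the 13 probes of the 10 genes on the NSD array (blue) and the HSD array (orange), with bars for the error that the scanner software gave each signal. Points of the 6 lower genes lie apart, as with *Entpd1* at 151.8 and 48.4, whereas the points of *Nt5e*, *Adora2a* and *P2ry2* lie within each other's bars.

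**Figure D2:**
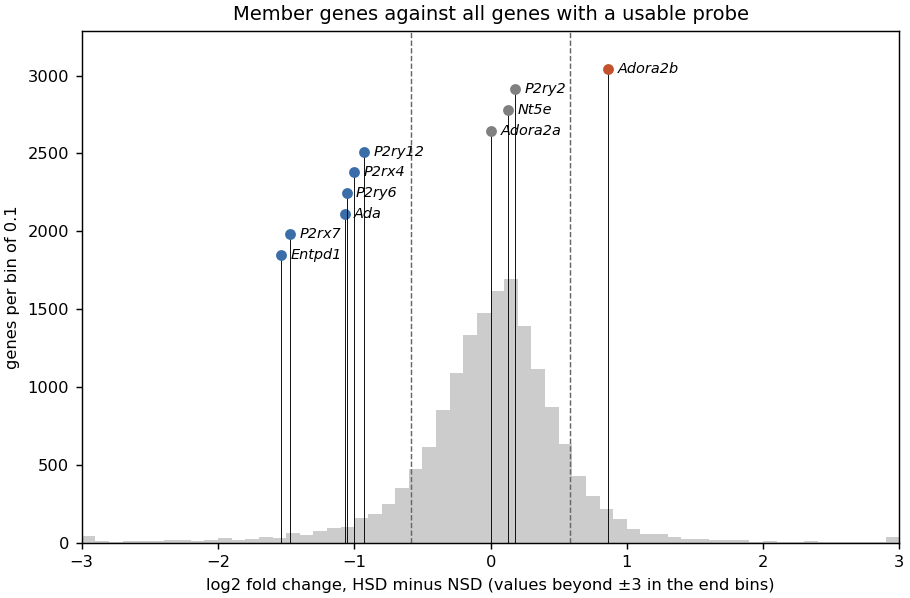
Log2 fold change of the 10 genes (labelled points, with heights chosen only for legibility) over the histogram of all 16312 genes, in bins of 0.1, with dashed lines at 1.5-fold. The 6 lower genes lie between -1.53 and -0.93 and the median of all genes is 0.045.

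Among the enzyme genes, *Entpd1* and *Ada* were lower in the HSD group and *Nt5e* was not. In the chain from ATP to inosine, their products act first, last and in the middle. Only RNA was measured, and enzyme activity at these steps was not. *Entpd1* had a signal of 151.8 under NSD and 48.4 under HSD. This was 2.90-fold lower, a log2 fold change of -1.53 with a software error of 0.21, and the lowest value among the 10 genes. *Ada* had signals of 316.7 and 139.3 for NSD and HSD, 2.10-fold lower, with a log2 fold change of -1.07 and a software error of 0.20. *Nt5e* had signals of 1343 and 1357, a log2 fold change of 0.13. The software error of the difference was 0.20 to 0.21 on the log2 scale for the brightest probe of every gene of the 10, and comes from the scanner's error model, not from a spread between samples. With normexp background correction the *Entpd1* value was -0.80, still called, and *Ada* was at -0.81.

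Because *Entpd1* showed the lowest log2 fold change, the promoter windows of its 2 start sites in the RefSeq tables (assembly GRCm38.p6) are shown, each from 250 bases before to 50 bases after the start, 5′ to 3′ on the plus strand. They lie at chr19:40612116-40612415 and chr19:40659520-40659819. Capitals mark matches, on either strand, to 6 motifs: GAGGAA (the core bound by ETS factors such as PU.1), GGGCGG (the GC box of Sp1), TGANTCA (the AP-1 site), TGGAAA (the core of NFAT5), CCAAT (the CCAAT box) and TGACGT (the core of a cyclic AMP response element).
Entpd1 upstream start: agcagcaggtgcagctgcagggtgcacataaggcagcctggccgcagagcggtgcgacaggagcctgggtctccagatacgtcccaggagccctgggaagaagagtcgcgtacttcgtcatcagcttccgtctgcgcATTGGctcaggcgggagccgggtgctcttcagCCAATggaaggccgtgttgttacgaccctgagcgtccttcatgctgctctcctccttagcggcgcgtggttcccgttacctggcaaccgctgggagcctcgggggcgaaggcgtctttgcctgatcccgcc
Entpd1 downstream start: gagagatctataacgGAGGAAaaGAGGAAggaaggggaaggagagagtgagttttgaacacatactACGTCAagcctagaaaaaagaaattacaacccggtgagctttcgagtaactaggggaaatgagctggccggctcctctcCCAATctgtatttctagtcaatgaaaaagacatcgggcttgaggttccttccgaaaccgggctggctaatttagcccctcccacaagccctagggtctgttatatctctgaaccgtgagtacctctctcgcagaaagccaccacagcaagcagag
The upstream window was 64.0% G or C and held 2 CCAAT matches. The downstream window was 48.7% G or C and held 2 GAGGAA matches, 1 CCAAT match and 1 TGACGT match. Of 32851 mouse promoter windows of the same length, 28.3% held GAGGAA, 37.4% CCAAT and 7.51% TGACGT. A match describes letters only, and no binding was measured.

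Of the adenosine receptor genes, only *Adora2b* passed 1.5-fold, and its probes disagreed. *Adora2a*, which encodes the adenosine receptor of higher affinity, had signals of 202.9 and 188.3 for NSD and HSD, a log2 fold change of 0.0066. *Adora2b*, which encodes the one of lower affinity, had signals of 73.7 and 123.7 at its brighter probe, 1.82-fold higher in the HSD group, with a log2 fold change of 0.86 and a software error of 0.21. The other *Adora2b* probe, made against the same transcript (NM_007413), had signals of 49.5 and 41.1, a log2 fold change of -0.15. The median over both probes was 0.35, which was not called, and normexp correction put the brighter probe at 0.54, also not called. A higher *Adora2b* level in the HSD group therefore rests on 1 probe.

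Both ATP-gated channel genes were lower in the HSD group. *P2rx4*, which encodes a channel of macrophage lysosomes and the cell surface, had signals of 2832 under NSD and 1305 under HSD. This was 2.01-fold lower, a log2 fold change of -1.004 with a software error of 0.20. *P2rx7*, which encodes the channel that links high ATP to the NLRP3 inflammasome and IL-1β release, had 3 probes for different transcripts. The brightest, for NM_011027, had signals of 148.7 and 49.6, 2.77-fold lower, with a log2 fold change of -1.47 and a software error of 0.21. The probe for NM_001038887 had signals of 56.8 and 36.3, a log2 fold change of -0.53, and the probe for NM_001038845 had signals of 29.3 and 22.7, a log2 fold change of -0.26. All 3 probes were lower on the HSD array and only the brightest passed 1.5-fold, so the median over the 3 probes (-0.53) was not called. Normexp correction put the brightest *P2rx7* probe at -0.80 and *P2rx4* at -0.96.

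*P2rx7* and *P2rx4* lie next to each other on chromosome 5 in the GRCm38.p6 gene order, with 0 protein-coding genes that have a named probe between them. The 6 genes measured on each side were not called, with log2 fold changes between -0.24 and 0.48 and a median of 0.17. *Camkk2*, a kinase gene next to *P2rx4*, had signals of 1409 and 1103 for NSD and HSD, a log2 fold change of -0.24. *Ift81*, next to *P2rx7*, had signals of 9.18 and 11.8, a log2 fold change of 0.48. Of these 14 neighbouring genes, only the channel genes passed 1.5-fold, beside 20.2% of all genes.

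The promoter windows of these neighbouring genes, which were lower together, are shown with the same motifs in capitals, on the plus strand of GRCm38.p6. The *P2rx7* windows lie at chr5:122643677-122643976 and chr5:122650133-122650432, and the *P2rx4* window lies at chr5:122707294-122707593.
P2rx7 upstream start: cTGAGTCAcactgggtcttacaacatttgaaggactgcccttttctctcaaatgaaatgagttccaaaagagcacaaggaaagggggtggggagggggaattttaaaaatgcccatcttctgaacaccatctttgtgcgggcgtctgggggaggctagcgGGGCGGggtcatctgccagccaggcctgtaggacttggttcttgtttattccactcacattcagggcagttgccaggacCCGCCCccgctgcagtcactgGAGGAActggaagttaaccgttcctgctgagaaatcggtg
P2rx7 downstream start: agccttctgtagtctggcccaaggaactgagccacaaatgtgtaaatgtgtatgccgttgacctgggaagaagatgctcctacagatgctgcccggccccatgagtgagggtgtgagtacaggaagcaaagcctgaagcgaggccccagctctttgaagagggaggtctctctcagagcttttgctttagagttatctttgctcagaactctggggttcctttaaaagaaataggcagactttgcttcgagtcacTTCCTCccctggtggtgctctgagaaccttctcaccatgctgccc
P2rx4: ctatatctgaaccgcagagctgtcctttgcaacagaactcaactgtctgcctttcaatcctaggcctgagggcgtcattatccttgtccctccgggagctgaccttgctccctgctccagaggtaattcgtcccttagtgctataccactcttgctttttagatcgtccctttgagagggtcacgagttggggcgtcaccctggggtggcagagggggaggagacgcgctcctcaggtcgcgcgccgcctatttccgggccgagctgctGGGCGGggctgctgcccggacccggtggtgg
The upstream *P2rx7* window held 1 GAGGAA, 2 GGGCGG and 1 TGANTCA match, the downstream one held 1 GAGGAA match and the *P2rx4* window held 1 GGGCGG match. GGGCGG was found in 35.7% and TGANTCA in 7.81% of all windows. TGGAAA, found in 21.4% of all windows, was in none of the 11 windows available for 8 of the 10 genes. The *P2rx7* windows were 53.3% and 51.7% G or C and the *P2rx4* window 60.3%. In the windows not shown, GGGCGG matches numbered 4 in *Nt5e* (in 2 overlapping pairs, 71% G or C) and 6 in *Adora2b* (70%). *Ada* (68%) held 2 and *P2ry12* (42.3%) held 0. The 2 *P2ry2* windows (71% and 67.3%) overlap and each held the same 4. A link between these counts and the fold changes was not tested.

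Among the 3 P2Y receptor genes, *P2ry6* and *P2ry12* were lower in the HSD group and *P2ry2* was within 1.5-fold. *P2ry6*, which encodes the UDP receptor known for its part in phagocytosis, was the only one of the 10 genes printed in several spots, 10 per array. After removal of flagged spots, the 8 spots of the NSD array gave 870.5 to 931.7 (median 897) and the 9 spots of the HSD array gave 380.8 to 423.4 (median 409). The spots of the arrays did not overlap, with SDs between spots of 0.038 and 0.056 on the log2 scale. The log2 fold change was -1.06, 2.08-fold lower. These SDs measure noise within an array only.

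*P2ry12*, which encodes the ADP receptor of platelets and microglia, had signals of 74.2 and 36.1 for NSD and HSD, 1.90-fold lower, with a log2 fold change of -0.93 and a software error of 0.21. Normexp correction put it at -0.40, which was not called. *P2ry2*, which encodes the ATP and UTP receptor known as a sensor of find-me signals, had signals of 1522 and 1591, a log2 fold change of 0.18. For comparison, the 97 probes with several spots and a signal of 50 to 500 had a median SD between spots of 0.074 on the log2 scale.

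*P2ry6* and *P2ry2* are direct neighbours on chromosome 7, and only *P2ry6* of this pair passed 1.5-fold. Of the 12 genes around them, 10 were usable, 0 were lower and 2 were higher, *Rab6a*, a Golgi GTPase gene (5558 and 8190, log2 fold change 0.67), and *Fam168a* (331.9 and 479.0, log2 fold change 0.64). Over all genes, 9.86% were higher and 10.3% lower. *P2ry12* lies on chromosome 3 beside *P2ry13*, another ADP receptor gene, and *P2ry14*, the UDP-glucose receptor gene. *P2ry14* had signals of 200.2 and 69.0, 2.68-fold lower, with a log2 fold change of -1.42. *P2ry13* had signals of 96.6 and 62.6, a log2 fold change of -0.51, which was not called. All 3 genes of the cluster were below 0, but *Gpr171* on its flank was at 0.45. Of the 7 usable genes around the cluster, 1 was lower, *Aadac*, at 10.5 on the NSD array and not well above background on the HSD array (log2 bound -1.14).

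**Figure D3:**
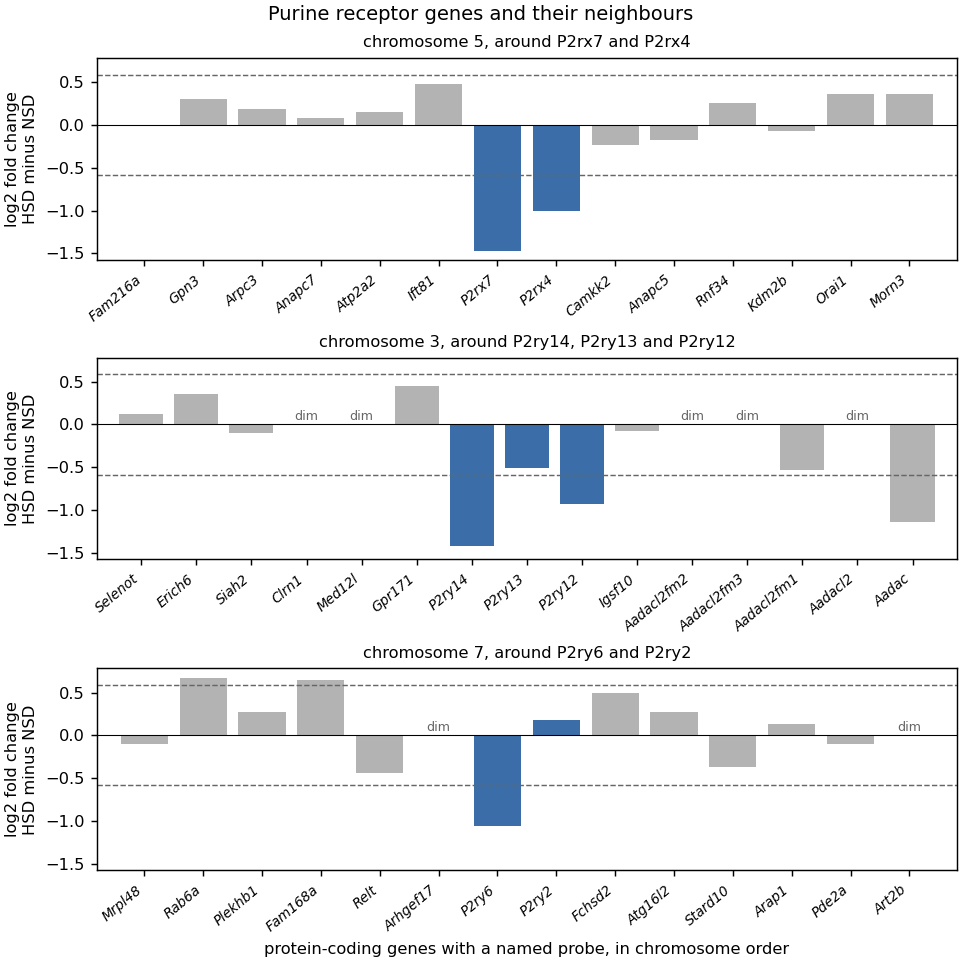
Log2 fold change (HSD minus NSD) of the purine receptor genes at 3 loci (blue) and the 6 measured protein-coding genes on each side (grey), in chromosome order, with dashed lines at 1.5-fold. Genes marked dim were not well above background on either array. *P2rx7* (-1.47) and *P2rx4* (-1.004) stand between neighbours from -0.24 to 0.48. The *Igsf10* and *Aadac* bars are bounds.

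The wider pathway had genes in both directions. A list of 77 other genes of purine handling and signalling, written from general knowledge, held 68 with a usable probe, of which 8 were higher, 7 were lower and 53 were within 1.5-fold. The balance of directions depended on the scaling, with 6 higher and 8 lower after quantile normalization, 5 and 8 under both cyclic loess and detected-probe scaling, and 7 and 8 with the deposited log2 values. The list had a median log2 fold change of 0.090, beside 0.045 for all genes. Together, 15 of the 68 usable genes were called, beside 20.2% of all genes. The 9 genes that were not well above background on either array included *Adora1*, *P2rx2*, *P2rx6* and *P2ry4*.

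None of the 14 other usable genes listed with the nucleotide-degrading enzymes was called by its brightest probe, with log2 fold changes from -0.55 to 0.52. This count and those of the receptor genes below stand beside 20.2% of all genes called. Other probes of *Entpd5* (0.96) and *Bst1* (0.71) passed 1.5-fold. *Adora3*, which encodes the A3 adenosine receptor, had signals of 413.8 and 406.0 for NSD and HSD, a log2 fold change of 0.087. The 3 usable P2X genes were not called, and *P2rx1* had signals of 338 and 370, a log2 fold change of 0.24. Of the 6 usable P2Y genes, *P2ry14* was lower and the other 5 were not called. *P2ry1*, another ADP receptor gene, had signals of 267 and 349, a log2 fold change of 0.50.

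In purine uptake and salvage, 3 of 15 genes were higher and 2 were lower, beside 9.86% and 10.3% over all genes. *Xdh*, which encodes the xanthine oxidoreductase that makes uric acid, had signals of 2019 and 836 for NSD and HSD, 2.23-fold lower. *Slc29a1*, which encodes the equilibrative nucleoside transporter ENT1, had signals of 327 and 196, a log2 fold change of -0.62. *Slc28a3*, a concentrative nucleoside transporter gene, had signals of 22.7 and 44.6, a log2 fold change of 1.09. *Aprt*, the adenine salvage enzyme gene, had signals of 4801 and 7401, a log2 fold change of 0.74. *Ampd2*, an AMP deaminase gene, was at 0.62 with its brighter probe and 0.09 with the other, and was within 1.5-fold under several scalings. With normexp correction *Slc29a1* (-0.48), *Slc28a3* (0.41) and *Aprt* (0.55) were not called either.

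Of 8 usable genes of ATP release, 2 were higher and 2 were lower, beside 9.86% and 10.3% over all genes. *Slc17a9*, which encodes the transporter that loads ATP into secretory vesicles, had signals of 2203 and 5767 for NSD and HSD, 2.83-fold higher, with a log2 fold change of 1.503. *Panx1*, the pannexin channel gene through which dying cells release ATP, had a log2 fold change of -0.35. *Gjb2*, a connexin gene, had a signal of 13.6 on the NSD array and was not well above background on the HSD array, at least 2.85-fold lower. *Calhm6* had signals of 31.4 and 12.9, a log2 fold change of -1.17, and *Calhm1* had signals of 7.14 and 10.0, a log2 fold change of 0.61. The dim *Gjb2*, *Calhm6* and *Calhm1* were not called after normexp correction, at -0.12, -0.25 and 0.13. *Calhm1* was also not called after quantile normalization (0.54), cyclic loess (0.48), detected-probe scaling (0.57) or with the deposited log2 values (0.51).

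Downstream of the adenosine receptors, 3 of 21 usable genes of cyclic AMP signalling were higher and 2 were lower. The shares over all genes were 9.86% and 10.3%. *Adcy6*, an adenylyl cyclase gene, had signals of 411 and 699 for NSD and HSD, a log2 fold change of 0.88, while *Adcy9*, another one, had signals of 462 and 246, a log2 fold change of -0.80. *Creb1*, which encodes the cyclic AMP-responsive factor CREB, had signals of 91.2 and 165.3, a log2 fold change of 0.97, and 0.25 at its other probe. *Pde7a*, a phosphodiesterase gene, was at 0.61 and 0.24 with its probes, and was not called with normexp correction (0.55), cyclic loess (0.58), detected-probe scaling (0.57) or the median over probes (0.42). *Prkar2a*, a regulatory subunit gene of protein kinase A, had signals of 23.3 and 13.6, a log2 fold change of -0.66, which was -0.06 after normexp correction. *Gnas*, which encodes the stimulatory G protein subunit that these receptors use, was at 0.10, and *Adcy7*, the adenylyl cyclase gene of haematopoietic cells, was at 0.17.

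**Figure D4:**
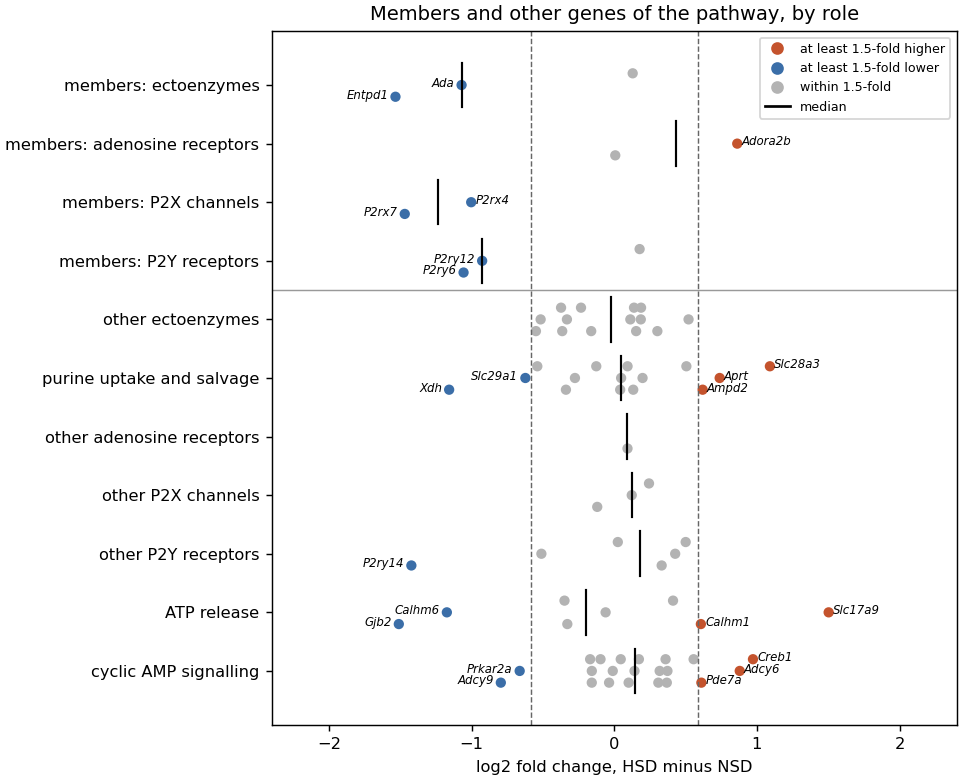
Log2 fold change (HSD minus NSD) of the 10 genes by role (above the line) and of 68 other genes of the pathway by group (below it), with dashed lines at 1.5-fold and a black bar at each median. In the upper rows 6 of 10 points lie left of the lower line, and the medians of the lower rows lie between -0.20 and 0.18. The *Gjb2* point is a bound.

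Some markers of other cell types also differed between the diets. The counts called stand beside 9.86% of all genes higher and 10.3% lower. In the monocyte and macrophage list, 3 of 9 genes were lower and 1 was higher. *Mrc1*, the mannose receptor gene, had signals of 134.3 and 5.49 for NSD and HSD, a log2 fold change of -4.50, and *Fcgr1*, the high-affinity IgG receptor gene, had signals of 304.7 and 21.9, a log2 fold change of -3.68. *Ccr2* was at -0.78 and *Cx3cr1* at 0.78, while *Csf1r* (-0.37), *Adgre1* (-0.55) and *Itgam* (0.09) were not called. Summed signals, here and for the lists below, were taken before scaling, with 75th percentiles of 252 under NSD and 233 under HSD. The sum of this list was 107279 under NSD and 97540 under HSD, and its largest terms were *Ly6c1* and *Itgam*. Macrophages express *P2rx4*, *P2rx7*, *P2ry6* and *Entpd1*, and the part of these cells in the lower values was not tested.

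Some platelet genes were lower as well, and platelets carry the receptor that *P2ry12* encodes. Of 9 platelet markers, 5 were lower and 4 were not called, 3 of them above 0. The lower ones included *Pf4* (1332 and 245, log2 fold change -2.33) and *Ppbp* (47.9 and 9.46, log2 fold change -2.23), and the summed signal of the list was 2063 under NSD and 937 under HSD. Most of the difference in that sum was the *Pf4* signal. *Itgb3*, the integrin β3 gene, was not called, at 0.20 with its brighter probe and 2.20 with the other, a dim one (6.38 and 27.1). *Gp1bb*, a subunit gene of the platelet von Willebrand factor receptor, was at 0.36, 0.54 and 0.84 with its 3 probes, and *Gp6*, the collagen receptor gene, was at 0.30. The part of platelets in the *P2ry12* value was not tested.

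In the T and NK cell list, which bears on *Entpd1* and *Ada*, 1 of 9 usable genes was lower, *Cd3e* (114.7 and 49.8, log2 fold change -1.09), and the summed signal was 2588 and 3043. The 5 B cell genes were not called, at 0.30 to 0.55. Of 6 usable dendritic cell genes, *Cd209a* was lower and *Clec9a* was higher, and the sums of the list were 14557 and 13984. Genes of 4T1 carcinoma cells had signals of 45.0 or below on the NSD array, with sums of 109 and 111 for NSD and HSD, and 3 of 6 usable ones, *Epcam* (0.70), *Krt8* (0.61) and *Krt18* (0.76), were higher. Of 5 usable fibroblast genes, 2 were lower and 1 was higher, with sums of 170 and 147, and none of 5 mast cell genes was called. The markers not well above background on either array were *Ncr1* of NK cells, *Xcr1* of dendritic cells, *Krt19* of carcinoma cells, and *Pdgfra* and *Lum* of fibroblasts. None of 6 endothelial genes was called by its brightest probe, but the other *Kdr* probe, in 10 spots per array, had signals of 124.2 and 20.4, a log2 fold change of -2.49. The part of these cells in the results was not tested.

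The values were then recomputed in other ways from the same arrays. Under every alternative, *Entpd1*, *Ada*, *P2rx4* and *P2ry6* were called lower, with ranges of -1.58 to -0.80, -1.11 to -0.81, -1.11 to -0.96 and -1.15 to -0.93. Of the 10 genes, only *P2rx7* and *Adora2b* had more than 1 probe. For the others, the median over probes could not change the value. All 13 probes were well above background with either diet, so the background filters could not change the value of any of the 10 genes. *P2rx7* (-1.51 to -0.53) and *P2ry12* (-0.97 to -0.40) kept their direction but not always their call, and so did *Adora2b* (0.35 to 0.87). *Nt5e* (0.050 to 0.15), *Adora2a* (-0.03 to 0.03) and *P2ry2* (0.096 to 0.21) were never called. After normexp correction, 5 of the 10 genes were lower and 0 were higher, against 4.07% lower and 3.85% higher over all genes. At a 2-fold threshold 5 were lower, against 4.17% over all genes, and with the median over the probes of each gene 5 were lower, against 9.82%. *P2rx4* passed 2-fold narrowly, at -1.004, and was short of it with median scaling, at -0.997.

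**Figure D5:**
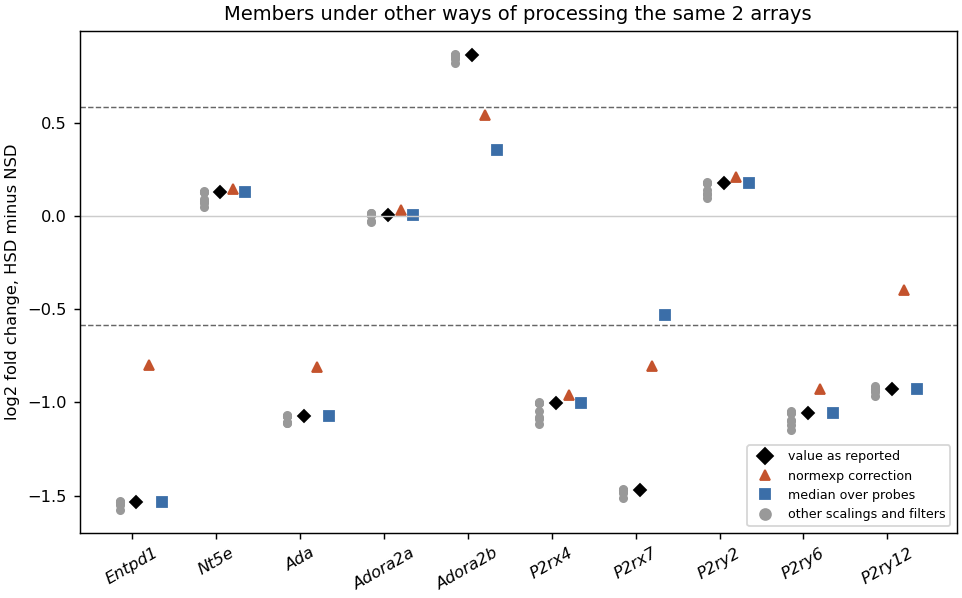
Log2 fold change (HSD minus NSD) of the 10 genes as reported (black diamonds), with normexp correction (orange triangles), as the median over a gene's probes (blue squares) and under the other scalings and filters (grey circles), with dashed lines at 1.5-fold. Normexp correction lies nearer 0 for *Entpd1* (-0.80) and *P2ry12* (-0.40), and the median over probes lies nearer 0 for *P2rx7* (-0.53) and *Adora2b* (0.35).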

How the data were processed

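Per the file headers, the scanner output that the authors deposited came from Agilent Feature Extraction 11.0.1.1, and its processed signals are intensities with the background taken off and no scaling between arrays. The authors also deposited log2 values of both arrays, normalised with GeneSpring GX by an algorithm not named in the sources used here. Their medians were 4.61 on each array, and their Pearson correlation with the extracted log2 signals, across probes well above background, was 1.00. They served as an alternative, and 0 columns of per-sample values were left unused.

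Controls and outlier-flagged spots were dropped, processed signals were log2-transformed and averaged per probe, and the 75th percentile over non-control probes was subtracted per array. A probe in several spots passed the background call when at least 50% of them did. Where a probe passed on 1 array alone, the value given is a bound, taken against its own dim signal or, if larger, the lowest signal called above background there (4.61 for NSD and 4.39 for HSD). Of 39413 probes, 71.9% passed for NSD and 72.4% for HSD. Both arrays were on 1 slide. With 1 array per diet no test was run, and precision is limited by that number of arrays.

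Transcripts were matched, without versions, to RefSeq of GRCm38.p6, which named 27223 probes (69.1%). The genes named are the 10 of the pathway core with every probe, the genes of the wider list past 1.5-fold, the receptor genes around them, and neighbouring genes and markers beside a result. The genes and all lists were chosen with earlier results of these data known. *Cd68*, *Ly6c2* and *Ly6g* found no probe. The calling step was tested on simulated data. Alternatives were normexp background correction (offset 50, on median spot signals), quantile, cyclic loess, median and detected-probe scaling, the deposited log2 values, a stricter filter and none, flagged spots kept, a 2-fold threshold, and a median across the probes of each gene. The software was R 4.3.3 (limma 3.58.1) and Python 3.11.15 (pandas 2.3.3, numpy 2.4.6, matplotlib 3.10.9).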

Additional observations from a re-analysis of the deposited data

How the results depend on the processing

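No paired analysis was possible because each diet had 1 array, and for the same reason no replicate could be left out. No called log2 fold change of a named gene, and neither list median, changed sign under the alternatives. The balance of directions did turn over: without a filter on dim probes, 2903 genes were higher and 2212 lower over all genes. The 7 calls among the 10 genes were 5 with normexp correction and 5 at 2-fold, each without *Adora2b* and *P2ry12*, and 5 with the median over probes, without *Adora2b* and *P2rx7*. Their median log2 fold change, -0.97, was -0.60 with normexp correction and -0.73 with the median over probes. The 15 calls in the wider list were 6 with normexp correction and 6 at 2-fold, and its median, 0.090, was 0.0072 under cyclic loess. Over all probes, 5669 calls became 1884 with normexp correction, 1832 at 2-fold and 9767 without a filter. At 2-fold, 6.8% of all genes were called. By construction, a 2-fold threshold can only lower a count of calls and dropping the filter can only raise it. The offset of 50 in the normexp correction, added on both arrays, draws log2 fold changes of dim probes towards 0. How much of the normexp shift this makes up, and the cause of the other shifts, was not tested. Scaling moved the median of all genes by at most 0.07 on the log2 scale. Signal over background limits the dim probes: between spots of 1 probe the median SD on the log2 scale was 0.18 below a signal of 50 and 0.060 above 500.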

Other observations

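In the wider list, 22 genes had more than 1 usable probe. For 4 of them the brightest probe was not called and another was. *Entpd5*, which encodes a nucleotidase of the endoplasmic reticulum, was at 0.52 with its brightest probe and at 0.96 with the other (91.3 and 164.6 for NSD and HSD), and *Bst1*, which encodes an NAD-consuming surface enzyme, was at 0.30 and 0.71 (722 and 1091 with the other probe). *Slc29a3*, a lysosomal nucleoside transporter gene, was at -0.54 and -0.79, the other probe having signals of 19.5 and 10.4. For *Gnas*, 0.10 stood beside 0.65 at a dim probe with signals of 6.61 and 9.56. For 3 genes, *Ampd2*, *Creb1* and *Pde7a*, the brightest probe was called and another was not.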
